A study of Mus musculus with 10 samples.

Results

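The enzymes that build fucose- and sialic acid-bearing glycans, together with those that start, branch and extend mucin-type sugar chains, were examined in the mouse jejunum with and without intestinal Pcyt1a. The members were Gmds, Slc35c1 and every gene whose symbol is one of 11 family names followed only by a number: Fut, Pofut, Galnt, Gcnt, B3gnt, B3galt, B4galt, St3gal, St6gal, St6galnac and St8sia. The RefSeq gene table holds 74 such symbols, and 73 of them were among the 22180 genes measured with a probe set of their own. The exception was B3gnt4, whose probe set also carries the symbol Diablo.

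RNA came from a 3 cm piece of jejunum, the middle of the small intestine, and was read on 10 Affymetrix whole-transcript arrays. The Fed Knockout group of 5 arrays had the genotype Pcyt1aLoxP/LoxP;VilCreERT2, in which a villin-driven, tamoxifen-activated Cre recombinase deletes the floxed gene in epithelial cells. The Fed Control group of 5 arrays had the genotype Pcyt1aLoxP/LoxP, with no Cre. Pcyt1a encodes the regulated enzyme of phosphatidylcholine synthesis. Mice of both groups were females aged 10 to 12 weeks, had tamoxifen for 5 days and a high-fat diet for 3 days, and were fasted overnight and then given that diet again for 2 hours. Because Cre was present in the knockout group alone, its activity and the loss of Pcyt1a cannot be told apart. The labels do not say that each array is a different mouse, so the spread behind every p-value is that among these 10 arrays and could be in part technical.

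Fucose reaches glycans as GDP-fucose, which Gmds and Gfus make from GDP-mannose in the cytosol and Slc35c1 carries into the Golgi, where fucosyltransferases use it. Mucin-type O-glycans begin when a Galnt enzyme puts N-acetylgalactosamine (GalNAc) on a serine or threonine. Galactose or N-acetylglucosamine (GlcNAc) is then added to form core structures, the chains are lengthened by galactosyl- and GlcNAc-transferases, and fucose or sialic acid caps them. In the small intestine these chains cover the secreted mucin Muc2 of goblet cells and the membrane mucins of enterocytes, and fucosylated chains serve as food and attachment sites for gut bacteria.

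Values are log2 of the deposited intensity, and a difference is knockout minus control on that scale. Array medians lay between 45.8 and 48.1 on the linear scale, and correlations between arrays ran from 0.972 to 0.993. Pcyt1a itself fell from 9.22 ± 0.20 among controls to 7.51 ± 0.16 among knockouts (SD, n = 5 each), 30.6% of the control level, with no overlap of the arrays (two-sided exact permutation p = 0.00794, the smallest that 5 against 5 arrays allow). Of 6 markers that define intestinal epithelium (Epcam, Cdh1, Vil1, Krt8, Krt20 and Cdx2), 0 passed the limma test and 0 had an unadjusted p under 0.05, and their summed intensity was 22710 to 27120 in knockout and 23340 to 28910 in control. In whole tissue, fewer cells of a type and less RNA per cell cannot be told apart. A probe set's intensity depends on its probes, so levels were compared between arrays and not between genes.

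Most of these genes differed little between the groups, and 3 passed the test. Gmds and Gcnt3, a branching enzyme, rose in knockout, and the sialyltransferase gene St3gal1 fell, each at a limma adjusted p under 0.05 over all genes. Of all 22180 genes, 0.171% passed as higher and 0.171% as lower. At an unadjusted p under 0.05, 7 members were higher and 5 lower, against 5.82% and 6.25% of all genes. The arrays of the groups did not overlap in 3 members that were higher (Gmds, Gcnt3 and B4galt1) and in 2 that were lower (St3gal1 and Galnt6), where 1.2% and 1.56% of all genes showed this. The median difference was -0.04 over the members and -3.54e-04 over all genes, and the median size of the difference was 0.10 in both sets. For 55 of the 73 members the 95% confidence interval lay wholly within 0.5 of 0, which is how closely 5 arrays a group could bound a difference. The share of all genes with such an interval was not counted. Of the members, 12 were among the dimmest 30% of genes, where a narrow interval does not show that expression was stable.

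**Figure D1:**
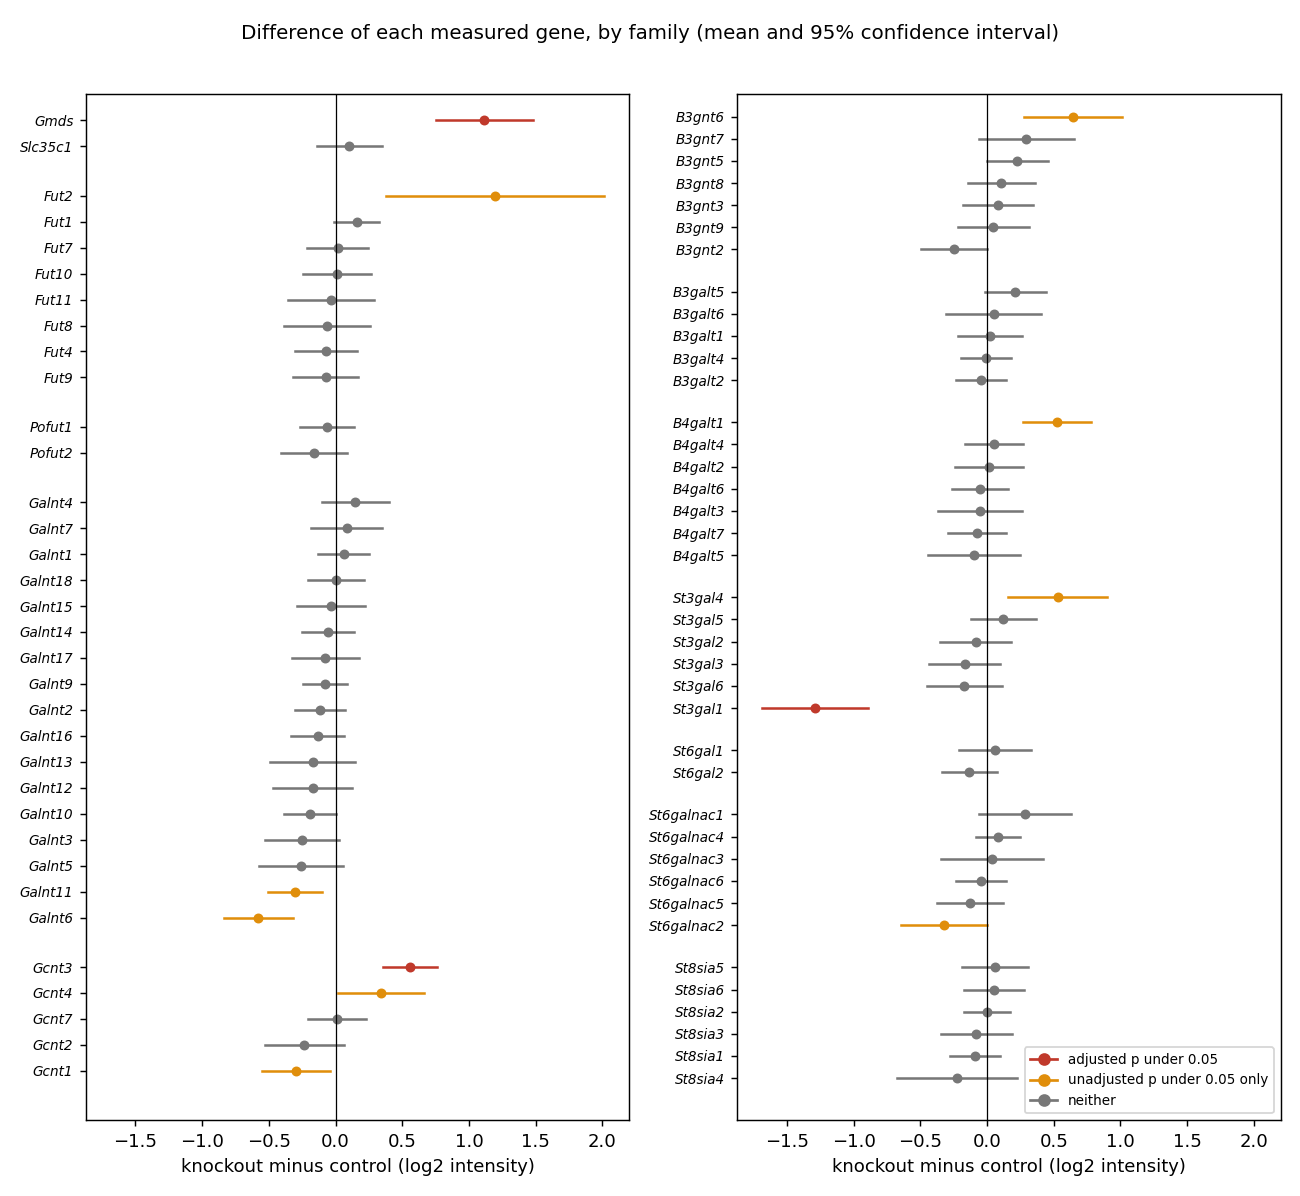
The knockout minus control difference in log2 intensity of all 73 measured genes, grouped by family, with points for the estimate and bars for the limma 95% confidence interval (5 arrays a group). Gmds, Gcnt3 and St3gal1, in red, passed at an adjusted p under 0.05, 9 genes in orange had only an unadjusted p under 0.05, and most of the others sit close to 0.

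RefSeq's promoter table for GRCm38.p6 held windows for 54 of the 73 members, each running from 250 bases before a transcript start to 50 after it. Of the 5 members with separate arrays, Gmds, B4galt1 and Galnt6 had one, and these are shown because they are the starts of genes whose levels differed without overlap, in both directions. The windows lie on the minus strand at chr13:32338495-32338794 for Gmds, chr4:40853935-40854234 for B4galt1 and chr15:100729327-100729626 for Galnt6, the last being the upstream of 2 starts. They are written 5′ to 3′ along the gene, and capitals mark the GC box, GGGCGG on either strand.
Gmds: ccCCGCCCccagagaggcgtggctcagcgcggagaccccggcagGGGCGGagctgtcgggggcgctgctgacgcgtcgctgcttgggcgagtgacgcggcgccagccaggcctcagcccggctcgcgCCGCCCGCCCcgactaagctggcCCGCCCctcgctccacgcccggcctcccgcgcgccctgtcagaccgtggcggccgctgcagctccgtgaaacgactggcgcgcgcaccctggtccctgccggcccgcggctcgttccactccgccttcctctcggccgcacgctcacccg
B4galt1: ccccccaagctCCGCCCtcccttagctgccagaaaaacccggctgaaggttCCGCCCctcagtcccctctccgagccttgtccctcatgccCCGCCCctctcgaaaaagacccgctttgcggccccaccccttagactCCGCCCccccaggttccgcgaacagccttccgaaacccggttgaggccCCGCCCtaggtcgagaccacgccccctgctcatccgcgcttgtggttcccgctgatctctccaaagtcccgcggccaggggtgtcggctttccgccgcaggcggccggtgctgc
Galnt6: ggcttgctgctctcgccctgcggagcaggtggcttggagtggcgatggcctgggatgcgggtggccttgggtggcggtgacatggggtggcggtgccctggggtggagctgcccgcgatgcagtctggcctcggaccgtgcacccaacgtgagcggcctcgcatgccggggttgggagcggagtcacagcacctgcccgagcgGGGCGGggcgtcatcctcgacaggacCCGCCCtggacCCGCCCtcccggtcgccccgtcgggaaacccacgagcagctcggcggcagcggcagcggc
The Gmds window is 78.0% G and C and holds 45 CpG dinucleotides, the B4galt1 window 68.3% and 26, and the Galnt6 window 73.7% and 31. The medians were 61.3% and 19 over the 75 windows of members, and 52.7% and 7 over all 32851 windows. GC boxes numbered 5 in the Gmds window, 5 in that of B4galt1 and 3 in that of Galnt6, counting matches that overlap, and 42 of the 75 member windows and 35.7% of all windows held at least 1. None of the 3 holds TATAAA or CCAAT on either strand. TATAAA was in 1 of the 75 member windows and 13.6% of all windows, and CCAAT in 22 of the 75 and 37.4% of all. TTCNNNGAA, a pattern bound by STAT factors, was found 1 time in the B4galt1 window and in neither of the others, against 8.3% of all windows. TGATGNAA, the core of an ATF4 element, was in none of the 3, against 3.97% of all windows. The gene that rose, the gene with higher values and the gene with lower values thus had GC-rich starts alike, and these matches are a description of the letters and not of binding.

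Among the genes of GDP-fucose supply, Gmds rose and no other passed the test. Gmds encodes GDP-mannose dehydratase, which commits GDP-mannose to fucose. Its values in knockout arrays 1 to 5 were 10.70, 11.04, 10.66, 11.16 and 10.65, and in control arrays 1 to 5 they were 9.85, 9.79, 10.20, 9.55 and 9.25. Every knockout array was above every control, with control 3 the nearest. The means were 10.84 ± 0.24 (SD, n = 5) and 9.73 ± 0.35 (SD, n = 5), a 2.17-fold increase (95% confidence interval 1.68 to 2.79; difference 1.12, SE 0.17, limma adjusted p = 0.0191). The rise no longer passed without knockout 2 or 4 or without control 1, 2 or 4 (adjusted p 0.0535 to 0.0720), while the difference stayed between 0.99 and 1.23 with any 1 array left out.

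Slc35c1, the Golgi GDP-fucose transporter, gave 7.92, 8.01, 8.13, 8.16 and 7.60 in knockout and 7.98, 7.76, 7.89, 7.71 and 7.95 in control. The groups overlapped and knockout 5 was the lowest of the 10 arrays. Its difference was 0.10 (SE 0.11, 95% confidence interval -0.14 to 0.35). A further 9 genes of GDP-mannose and GDP-fucose supply were measured of 11 listed, and 0 passed. An unadjusted p under 0.05 was found for 2 (22.2%, against 12.1% of all genes). Those 2 were Mpi, the mannose phosphate isomerase (0.37, SE 0.09), and Pmm2, the phosphomannomutase that follows it (0.20, SE 0.07), and in both the knockout arrays lay above all controls. Pmm1 was at 0.21 (SE 0.10) and Fpgt, which makes GDP-fucose in the salvage route, at 0.08 (SE 0.08). Gfus, the enzyme just after Gmds, was outside the naming rule and is given for its place in the pathway, at 0.07 (SE 0.07). The median of these 9 differences was 0.07.

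Fut2 was the fucosyltransferase with the widest difference, and the knockout arrays disagreed on it. It encodes the enzyme that puts fucose on terminal galactose at the gut surface. Knockout arrays 1 to 5 read 5.96, 6.89, 5.89, 7.53 and 8.23, and control arrays 1 to 5 read 5.57, 6.01, 5.52, 5.69 and 5.72. Knockouts 2, 4 and 5 were above all controls, while knockouts 1 and 3 were just below control 2. The SD was 1.01 among knockouts, the largest of the 73 members (the next, St3gal1, had 0.39), and 0.19 among controls. The difference of 1.20 (SE 0.38, 95% confidence interval 0.38 to 2.01) did not pass (limma adjusted p = 0.226, from 0.0874 to 0.709 over 21 alternatives), and it ran from 0.86 without knockout 5 to 1.45 without knockout 3.

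The other 7 numbered Fut genes had differences between -0.07 and 0.16. Fut1, which forms the same linkage as Fut2, was at 0.16 (SE 0.08), with a mean of 4.79 in knockout and 4.63 in control. Fut4 and Fut9, which fucosylate GlcNAc within chains, were both at -0.07, and Fut7, of the same kind, at 0.02. Fut8, which adds the core fucose of N-glycans, averaged 10.15 and 10.21 (difference -0.06, SE 0.15). All 7 intervals lay within 0.5 of 0, though Fut1, Fut7 and Fut9 were dim, averaging 4.71, 4.58 and 4.58 over the 10 arrays. The protein O-fucosyltransferase genes, which modify folded domains such as those of Notch, stood at -0.06 for Pofut1 and -0.16 for Pofut2 (SE 0.11, mean over 10 arrays 7.59).

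The Galnt genes start mucin-type chains, and 0 of the 17 measured passed the test, where 0.343% of all genes did. Of the 17, 13 had lower and 4 higher values, with a median of -0.12, where 49.9% of all genes had higher values. At an unadjusted p under 0.05 there were 2, both lower, and their share of 11.8% was near the 12.1% of all genes. Galnt6 read 9.94, 9.68, 9.70, 9.45 and 9.66 in knockout and 10.16, 10.41, 10.14, 10.06 and 10.56 in control. All knockouts were below all controls, knockout 1 being nearest to them. Its difference was -0.58 (SE 0.12, limma adjusted p = 0.0698), and over 21 alternatives that p ran from 0.0297 to 0.349. Galnt6 did pass without knockout 1 (-0.64, adjusted p = 0.0299).

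Galnt11 read 6.97, 7.10, 7.29, 6.997 and 6.98 in knockout and 7.32, 7.32, 7.35, 7.27 and 7.60 in control. Knockout 3 reached into the control range, and control 5 was well above the other controls. The difference was -0.30 (SE 0.09, adjusted p = 0.216). A further 3 Galnt genes had differences between -0.26 and -0.19, namely Galnt5 at -0.26 (SE 0.15), Galnt3 at -0.25 (SE 0.13) and Galnt10 at -0.19 (SE 0.09). Galnt1 averaged 10.47 in knockout and 10.40 in control. Galnt4 had the highest difference of the family, 0.15 (SE 0.12). The remaining Galnt genes ran from -0.17 to 0.08.

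Of the Gcnt genes, which branch O-glycan cores or chains with GlcNAc, Gcnt3 rose while others of the family had values on either side. Gcnt3 encodes the mucin-type branching enzyme that forms core 2 and core 4. Knockout arrays 1 to 5 were at 8.86, 8.81, 8.69, 8.92 and 8.67 and control arrays 1 to 5 at 8.34, 8.31, 8.16, 8.35 and 8.01. The groups were separate, and each varied little. The means were 8.79 ± 0.11 (SD, n = 5) and 8.23 ± 0.15 (SD, n = 5), a 1.47-fold increase (1.28 to 1.69; difference 0.56, SE 0.09, limma adjusted p = 0.0289). This call was near the threshold: with 1 array left out it held only without knockout 1 or knockout 5, and the adjusted p was 0.0519 to 0.0938 without knockout 2, 3 or 4 or any 1 control, at differences of 0.50 to 0.59.

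Gcnt1, another core 2 enzyme, known from leukocytes, read 5.05, 5.17, 5.10, 5.01 and 5.39 in knockout and 5.63, 5.48, 5.21, 5.69 and 5.20 in control. The groups overlapped through knockout 5 and controls 3 and 5. The level of Gcnt1 was low, with every knockout (32.3 to 41.8 on the linear scale) below the array medians. Its difference was -0.30 (SE 0.12, adjusted p = 0.340). Gcnt4, also a core 2 enzyme, read 9.45, 9.95, 9.80, 10.23 and 9.80 in knockout and 9.44, 9.26, 9.73, 9.77 and 9.34 in control. Knockouts 2 to 5 were above all controls and knockout 1 was among them, for a difference of 0.34 (SE 0.15, adjusted p = 0.378). Gcnt2, which makes branches within chains, was at -0.24 (SE 0.14) and Gcnt7 at 0.01.

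The B3gnt genes, which add GlcNAc to cores and chains, had 6 of 7 values higher, with a median of 0.11. Of these genes, 0 passed the test and 1 (14.3%) had an unadjusted p under 0.05, against 12.1% of all genes. That 1 was B3gnt6, the core 3 synthase. It read 5.44, 6.15, 5.80, 5.67 and 6.0 in knockout and 5.50, 5.33, 5.15, 5.24 and 4.63 in control. Its level was low: on the linear scale the controls ran from 24.7 to 45.4, below every array median (45.8 to 48.1). Knockout 1 was below control 1, and the other 4 knockouts were above all controls. The difference was 0.64 (SE 0.17, limma adjusted p = 0.134, from 0.0308 to 0.566 over 21 alternatives), and with the goblet cell list mean in the fit it was 0.79 and passed. B3gnt3, which extends core 1, averaged 10.69 and 10.60 (difference 0.08, SE 0.12). B3gnt7 was at 0.29 (SE 0.16), B3gnt5, which acts on glycolipids, at 0.23 (SE 0.11) and B3gnt2, which builds repeated chains, at -0.25 (SE 0.11).

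Among the galactosyltransferases, B4galt1 differed without overlap and did not pass. It encodes the widely used enzyme that adds galactose to GlcNAc. Knockout arrays read 10.86, 11.16, 10.70, 11.10 and 11.35 and control arrays 10.57, 10.63, 10.50, 10.39 and 10.46. The lowest knockout, array 3, was just above the highest control, array 2. The difference was 0.52 (SE 0.12, 95% confidence interval 0.27 to 0.78, limma adjusted p = 0.0874), and the adjusted p stayed above the threshold under all 21 alternatives (0.0519 to 0.430). The other 6 B4galt genes lay between -0.10 and 0.05, among them B4galt5 and B4galt6, which make lactosylceramide (means of 10.50 and 10.60 for B4galt5, and 11.07 and 11.12 for B4galt6, in knockout and control). The 5 B3galt genes ran from -0.05 to 0.21, with the smallest p for B3galt5, which makes one type of chain end in gut epithelium (0.21, SE 0.11). B3galt4 averaged 6.36 over the 10 arrays, with a difference of -0.01 (SE 0.09). All 5 B3galt intervals lay within 0.5 of 0, though B3galt1 was dim, averaging 4.29 over the 10 arrays.

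**Figure D2:**
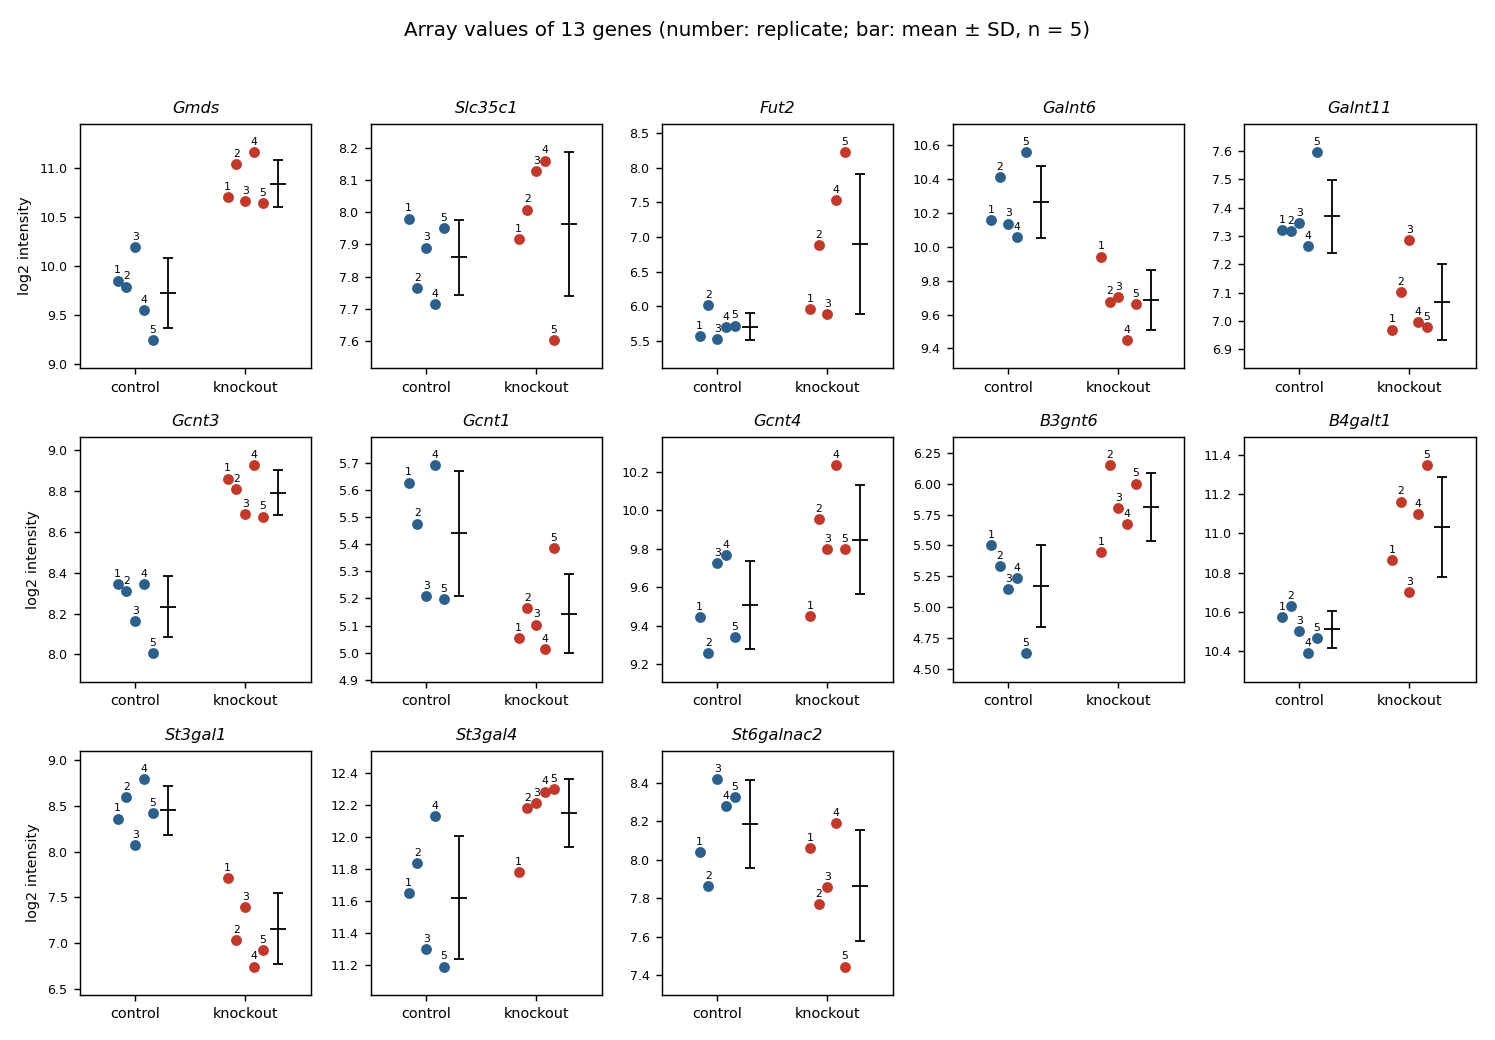
Log2 intensity in each of the 10 arrays for Gmds, Slc35c1 and the 11 other genes with an unadjusted p under 0.05, with controls in blue, knockouts in red, the replicate number at each point and black bars for mean ± SD (5 arrays a group, axis range differs by panel). The groups are separate in Gmds, Galnt6, Gcnt3, B4galt1 and St3gal1, and the knockouts of Fut2 spread from 5.89 to 8.23.

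Among the sialyltransferase genes St3gal1 fell, and the others had values on either side of 0. St3gal1 caps core 1 of O-glycans with sialic acid. Its knockout arrays 1 to 5 read 7.71, 7.03, 7.39, 6.75 and 6.92, and its control arrays 8.36, 8.60, 8.07, 8.79 and 8.42. All knockouts were below all controls, with knockout 1 and control 3 the closest. The means were 7.16 ± 0.39 (SD, n = 5) and 8.45 ± 0.27 (SD, n = 5), which is 2.44-fold lower (1.86 to 3.22; difference -1.29, SE 0.18, limma adjusted p = 0.0185). The fall no longer passed without knockout 2 or 4 or control 2 or 4 (adjusted p 0.0520 to 0.0606), at differences of -1.26 to -1.19, and without knockout 1 it was -1.43.

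St3gal4, which caps galactose on GlcNAc chains, had higher values in knockout. It read 11.78, 12.18, 12.21, 12.28 and 12.30 there and 11.65, 11.84, 11.30, 12.13 and 11.19 in control. Knockouts 2 to 5 were above all controls and knockout 1 fell within their range. The difference was 0.53 (SE 0.17, adjusted p = 0.240, from 0.117 to 0.720 over 21 alternatives). The other St3gal genes gave -0.08 for St3gal2, which acts on the same core 1 chain as St3gal1, -0.17 for St3gal3 and for St3gal6, and 0.12 for St3gal5, the GM3 ganglioside synthase.

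St6galnac2, which adds sialic acid to the GalNAc at the root of O-glycans, read 8.06, 7.77, 7.86, 8.19 and 7.45 in knockout and 8.04, 7.87, 8.42, 8.28 and 8.33 in control. The groups overlapped, with knockout 5 the lowest array, and the difference was -0.32 (SE 0.15, adjusted p = 0.413). St6galnac1, with a like activity, was at 0.28 (SE 0.16), and the remaining St6galnac genes ran from -0.13 to 0.08. St6gal1, which sialylates N-glycans, averaged 5.52 and 5.46 (difference 0.06, SE 0.12), and St6gal2 stood at -0.13 (SE 0.09). The 6 St8sia genes, which add sialic acid to sialic acid, ran from -0.23 to 0.06. The lowest was St8sia4, a polysialic acid synthase (-0.23, SE 0.21, mean over 10 arrays 6.24). In all, 12 of 20 sialyltransferase genes had lower values, with a median of -0.06, and 1 passed. An unadjusted p under 0.05 was found for 3 (15%, against 12.1% of all genes).

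None of the genes for enzymes that make or remove sialic acid passed the test, where 0.343% of all genes did. All 14 listed were measured, with 8 higher and 6 lower values and a median of 0.07. At an unadjusted p under 0.05 there were 3 (21.4%, against 12.1% of all genes). These were Nanp, the last phosphatase of sialic acid synthesis (-0.56, SE 0.16), Npl, the lyase that breaks free sialic acid down (1.41, SE 0.45), and Neu3, a membrane sialidase (-0.30, SE 0.11). Neu1, the lysosomal sialidase, was at 0.39 (SE 0.19). With the goblet cell list mean in the fit, Npl was at 1.81 (SE 0.38) and passed (adjusted p = 0.0491).

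Of 87 listed pathway genes around the members, 0 were called by limma. Only 0.343% of all genes were called, so a count of 0 says little. At an unadjusted p under 0.05 there were 18 (11 higher, 7 lower), or 20.7%, against 12.1% of all genes. In the supply of amino sugars and galactose (15 measured of 18), Pgm3, of the UDP-GlcNAc route, was at -0.37 (SE 0.10) with all knockouts below all controls. Gfpt1, the entry enzyme of that route, was at 0.28 (SE 0.10), Gnpnat1 at 0.43 (SE 0.19) and Slc35b4, a nucleotide sugar transporter, at 0.37 (SE 0.11). Of 23 other glycan enzymes, not all of them mucin-type, 17 had higher values, where 49.9% of all genes did. Among them 3 had an unadjusted p under 0.05, all higher (13%, near the 12.1% of all genes). B4galnt1, a ganglioside synthase, was at 0.42 (SE 0.12) and B4galnt4 at 0.45 (SE 0.15). C1galt1c1, the chaperone of core 1 synthase, was at 0.27 (SE 0.11) and B4galnt2, which makes the Sda antigen of the gut, at -0.14 (SE 0.08). In N-glycan branching and Notch glycosylation, 6 of 15 were higher. Mgat5, a branching enzyme, was at -0.28 (SE 0.09) with all knockouts below all controls, Mgat4c at 0.56 (SE 0.19), Poglut1 at 0.37 (SE 0.13) and Eogt at -0.45 (SE 0.18).

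RNA for the proteins that carry these glycans was measured on the same arrays. Of 11 genes for mucins and mucus proteins, 8 had lower values, with a median of -0.02 and 0 past the test. At an unadjusted p under 0.05 there were 2, both lower (18.2%, against 12.1% of all genes). Muc2, the gel-forming mucin of goblet cells, gave means of 12.79 ± 0.18 for knockout and 13.05 ± 0.11 for control (SD, n = 5 each), and its difference was -0.26 (SE 0.10). Fcgbp, which is secreted with it, was at -0.45 (SE 0.10, limma adjusted p = 0.0867), with all knockouts below all controls. Muc1 was at -0.13 (SE 0.09) and Muc4 at 0.17 (SE 0.20).

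The goblet cell marker list, which shares Muc2 and Fcgbp with the mucins, was read in the same arrays. Of 12 listed markers, all measured, 8 had lower values, 0 passed and 6 had an unadjusted p under 0.05, all lower. Their summed intensity was 25530 to 32340 in knockout and 27570 to 35430 in control, and none was at 0. The list mean, each gene centred on its average, was -0.30 to 0.14 in knockout arrays and -0.33 to 0.26 in control arrays, where control 5 was the low one. With that mean in the fit, Gmds (1.25, SE 0.15), Gcnt3 (0.61, SE 0.10) and St3gal1 (-1.29, SE 0.20) all passed (adjusted p 0.00874, 0.0219 and 0.0208), and Galnt6 (-0.66, SE 0.12) passed too (adjusted p = 0.0297).

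Markers of the ileum, the distal small intestine, varied among the arrays as well. Of 9 markers measured of 10 listed, 7 had higher values, 0 passed and 5 had an unadjusted p under 0.05. Fabp6, the ileal bile acid binding protein, was at 3.89 (SE 0.97), while Cubn, the vitamin B12 receptor subunit, was at -0.84 (SE 0.19), so the markers did not all point the same way. Summed intensity was 4044 to 10280 in knockout and 6889 to 9179 in control, and none was at 0. The list mean was -1.02 in knockout 1, while knockouts 2 to 5 had 0.48 to 1.02 and the controls -0.78 to 0.14. Of 9 markers of the proximal intestine, 8 had lower values and 1, the hormone gene Gip, fell (-0.76, SE 0.11, limma adjusted p = 0.0191). Gip and Cck are also on the enteroendocrine list of the closing section, and Lct and Fabp1 on its mature enterocyte list. The proximal list mean was 0.28 in knockout 1, -0.59 to -0.18 in knockouts 2 to 5, and 0.11 to 0.40 among controls.

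Fut2 was set beside the ileum list array by array. Knockouts 2 and 5, highest on the list at 0.93 and 1.02, had 6.89 and 8.23 for Fut2, and knockout 1, lowest at -1.02, had 5.96. Knockouts 3 and 4 were alike on the list, at 0.48 and 0.51, and differed in Fut2, at 5.89 and 7.53. With the list mean in the fit, the Fut2 difference was 0.63 (SE 0.37) in place of 1.20. It was 0.37 in place of 0.64 for B3gnt6, 0.29 in place of 0.53 for St3gal4, 0.21 in place of 0.34 for Gcnt4 and -0.12 in place of -0.32 for St6galnac2. Other members went further from 0, such as B3gnt7 at 0.53 in place of 0.29 and Gcnt1 at -0.40 in place of -0.30. The part of the ileum list in these differences was not tested beyond these values.

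None of the 3 called genes passed in that fit. Gmds was at 1.03 (SE 0.21) in place of 1.12, St3gal1 at -1.08 (SE 0.20) in place of -1.29 and Gcnt3 at 0.56 (SE 0.12), as without the list mean. Their limma adjusted p was 0.130, 0.117 and 0.152, and 0.0225% of all genes passed there, in either direction.

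**Figure D3:**
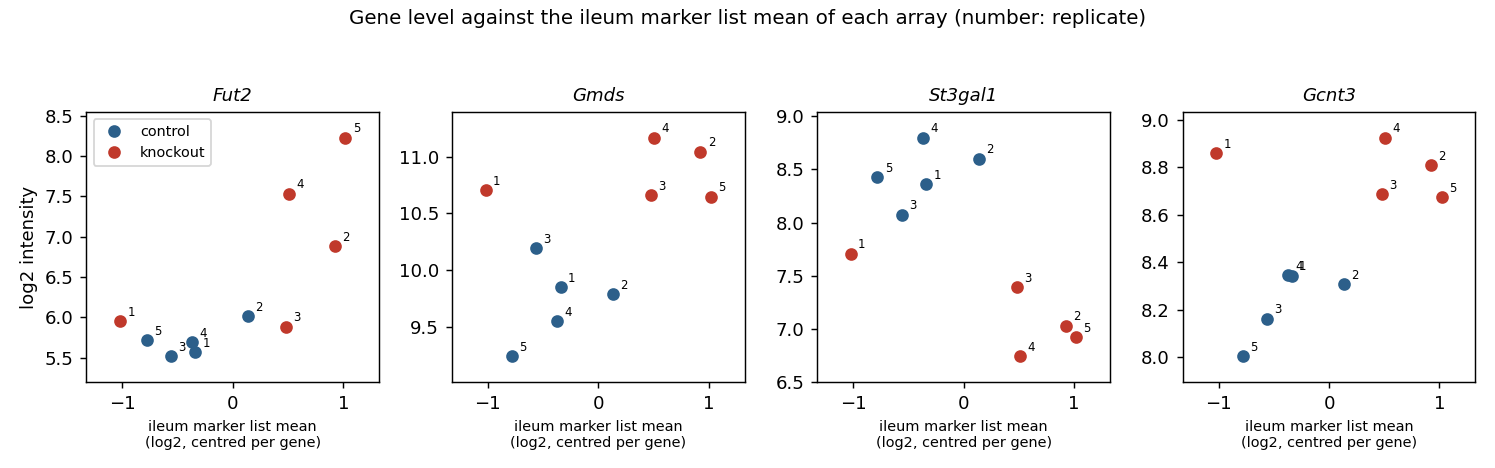
Log2 intensity of Fut2, Gmds, St3gal1 and Gcnt3 (vertical axes) against the mean of the 9 measured ileum markers in the same array (horizontal axis, log2, each marker centred on its mean), with 5 control arrays in blue and 5 knockout arrays in red. Knockout 1, at a list mean of -1.02, has 5.96 for Fut2, 10.70 for Gmds, 7.71 for St3gal1 (the knockout nearest to the controls) and 8.86 for Gcnt3.

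**Figure D4:**
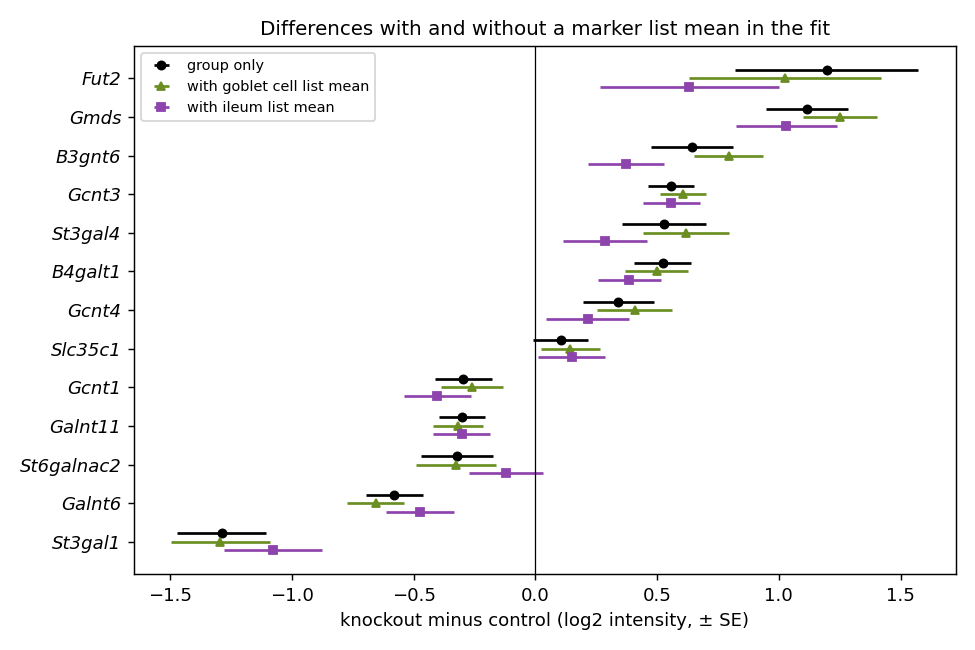
Knockout minus control difference (log2 intensity, bars ± SE) of the 13 genes described array by array, fitted with group alone (circles), with the goblet cell list mean (triangles) and with the ileum list mean (squares). The difference of Fut2 goes from 1.20 to 0.63 with the ileum list mean, and those of Gmds, St3gal1 and Gcnt3 are 1.03, -1.08 and 0.56 there.

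Of the members, 6 had more than 1 probe set of their own, and none of the 13 genes described array by array was among them. The probe set used and the other one pointed in different directions for B4galt7 (-0.07 and 0.18), B3gnt7 (0.29 and -0.13) and Fut11 (-0.04 and 0.11), and Galnt1 (0.06 and 0.15) and St8sia5 (0.06 and 0.04) pointed the same way. Gcnt2 had 2 others, at -0.04 and 0.00, beside -0.24 for the one used. Probe sets that also carry another symbol were not used. They stood at -0.42 (SE 0.24) for St8sia3 and -0.37 (SE 0.30) for St8sia1, beside -0.08 and -0.09 for the ones used. For St6gal1 and B4galt2 they were at -0.01 and -0.03.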

How the data were processed

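The deposited table holds 1 intensity per probe set and array. Per the submitters' processing notes, the authors used Affymetrix Expression Console 1.4.1.46 and RMA. The values, from 1.8 to 15278.7, are on a linear scale. RMA gives the arrays a like distribution, which hides any change common to most transcripts, and precision is limited by having 10 arrays.

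Samples were grouped by title. The log2 of each intensity was taken, as the design foresaw. Probe sets with exactly 1 symbol in GEO's platform annotation were kept (23521 of 41345; 1814 had several and 16010 none), and per gene the one with the highest mean over 10 arrays. The comparison used limma 3.58.1 under R 4.3.3 (lmFit, eBayes, group only), with Benjamini-Hochberg over 22180 genes and calls at an adjusted p under 0.05. The fit was tested on simulated data. Alternatives were other scaling, filters, probe set choices, variance models, array weights, a replicate block, arrays left out, and ileum or goblet cell list means as covariates.

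The members and gene lists were chosen with earlier results of these data known. Genes described array by array were Gmds, Slc35c1 and members with an unadjusted p under 0.05. Families with none such give their smallest p. Up to 4 genes per pathway list with the smallest p and Muc2 were named. The member with the highest mean intensity of each family is named with its level. Gfus was named outside this rule. Marker lists other than epithelium, goblet cells, ileum and proximal intestine were drawn up and are given only in the closing section.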

Additional observations from a re-analysis of the deposited data

Results flagged for a closer look

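Of 30 groups of 5 arrays (15 quantities, 2 groups each), 4 held an array whose gap to the next was above Dixon's 95% critical value for 5 samples, a test that by chance picks out about 1 group in 20. Galnt11 was at 7.60 in control 5, against 7.27 to 7.35 in the other controls. St3gal4 was at 11.78 in knockout 1, against 12.18 to 12.30 in the other knockouts. The ileum list mean was at -1.02 in knockout 1, against 0.48 to 1.02. The goblet cell list mean was at -0.33 in control 5, against 0.09 to 0.26.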

How the results depend on the processing

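Of 73 members, 2 were called higher and 1 lower. With 1 array left out in turn, the counts ran from 0 to 2 higher and from 0 to 2 lower. Counts of higher calls were 1 with all probe sets tested and 1 without knockout 1 and control 5 together, 0 with the ileum list mean as a covariate, 3 with the goblet cell list mean (B3gnt6 added) and 3 at an adjusted p under 0.1 (B4galt1 added). Counts of lower calls were 2 with array weights, 2 without knockout 1 and control 5 together, 2 with the goblet cell list mean, 2 at an adjusted p under 0.1 and 0 with the ileum list mean. The second lower gene in each was Galnt6. Among 87 pathway genes, 0 were called in either direction, 1 higher (Npl) with the goblet cell list mean and 1 lower (Fcgbp) at an adjusted p under 0.1. With the replicate number as a block (replicate block), 0 members were called higher and 0 lower, and the adjusted p was 0.0521 for Gmds, 0.0582 for St3gal1 and 0.0548 for Gcnt3. The numbers did not pair the arrays: deviations of same-numbered arrays correlated at -0.135 to 0.125, and 0 of 5 knockouts matched their own number best. Slc35c1 and the 16 members named by their p kept their direction under every alternative run (21 each, 20 for St6gal2, which leaving out the dimmest 30% of genes removed with 11 other members), and Pcyt1a stayed called.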

Other observations

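Marker lists of other intestinal cells were read in the same arrays, and some markers of tuft and enteroendocrine cells fell. Of the other secretory types, 0 of 12 goblet cell and 0 of 7 Paneth cell markers passed the test. An unadjusted p under 0.05 was found for 7 of 9 tuft, 6 of 10 enteroendocrine and 6 of 12 goblet cell markers, all lower. It was found for 0 of 7 Paneth cell markers and for 12.1% of all genes. Of the Paneth cell markers, 5 had higher and 2 lower values. Of 9 tuft cell markers measured, 8 had lower values and 1, the surface receptor gene Siglecf, fell (-0.50, SE 0.09, limma adjusted p = 0.0364). The tuft list mean was -0.25 to -0.07 in knockout arrays and 0.03 to 0.31 in control arrays, with no overlap. Of 10 enteroendocrine markers, 9 had lower values and 2 fell, the hormone genes Gip (-0.76, SE 0.11, adjusted p = 0.0191) and Sst (-0.71, SE 0.12, adjusted p = 0.0296). The fall of Gip is the one given above for the proximal list, which shares Gip and Cck with these markers. The enteroendocrine list mean was -0.42 to -0.05 in knockout and -0.03 to 0.37 in control, also with no overlap. All 8 proliferation markers measured had higher values, with 0 past the test (6 at an unadjusted p under 0.05), and list means of -0.46 to 0.75 in knockout and -0.90 to 0.39 in control.

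None of the markers of mature enterocytes, Paneth cells, T cells, B and plasma cells, macrophages and dendritic cells, smooth muscle or pancreatic acinar cells passed the limma test. At an unadjusted p under 0.05 there were 3 of 6 T cell markers and 1 of 10 mature enterocyte markers, all lower, and 0 in the other lists. Control arrays spread widely on the Paneth cell list, from -1.97 to 0.94, against -0.80 to 0.77 in knockout. The part of these lists in the differences of the glycosyltransferase genes was not tested.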
